A study of Mus musculus with 267 samples.

Results

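Scavenger receptors are described here through the chromatin around the genes of 7 of them, Msr1, Marco, Scarb1, Scarb2, Stab1, Cd163 and Olr1, in mouse bone marrow-derived macrophages (BMDMs) given interleukin-4 (IL-4). A region belonged to a gene when its centre lay within 50 kb of the gene's start in the mm10 genome. By that rule 81 of 67742 regions of the C57 table, 59 of 54022 of the BALB table, 76 of 68932 of the NOD table, 61 of 60175 of the PWK table and 54 of 54755 of the SPRET table were members. So were 95 of 77955 regions of the C57 time course, 31 of 30675 sites of the EGR2 time course and 2 of 4677 sites of the Egr2 genotype tables. By their label the genotype sites were chosen as EGR2 peaks induced at 24 h of IL-4. In C57 the 81 regions comprised 7 at Msr1, 10 at Marco, 18 at Scarb1, 8 at Scarb2, 22 at Stab1, 4 at Cd163 and 12 at Olr1. Regions are 1000 bp wide, so that close neighbours can overlap and share reads.

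The study mapped histone marks, RNA polymerase II (Pol II) and transcription factors by chromatin immunoprecipitation with sequencing (ChIP-seq) in BMDMs grown from marrow with M-CSF, taken from female mice of 8 to 12 weeks. Of the strains, C57 stands for C57BL/6J and BALB for BALB/cJ, while NOD is NOD/ShiLtJ, SPRET is SPRET/EiJ and PWK is PWK/PhJ. Each was untreated (basal) or had 24 h of 20 ng/mL IL-4, and C57 also 1 and 6 h. Egr2flfl macrophages, whose Egr2 alleles are floxed in both arms of that comparison, were set beside LyzMCreEgr2flfl macrophages, in which Cre driven by the myeloid LyzM gene deletes Egr2, basal and at 24 h. Values are normalized tags, that is reads scaled to a common library total of 10000000. H3K27ac, which marks enhancers and promoters in use, had 2 libraries per strain and condition. Over the 155 libraries of the tables, totals ran from 4691644 to 29050468 tags. Of the 8 macrophage marker genes examined (among them Csf1r, Adgre1 and Spi1) 8 had a start region in C57, with mean basal H3K27ac of 189.6 to 1294 normalized tags, and 0 of the 3 T cell markers had one. Markers of B cells, neutrophils, dendritic cells, fibroblasts and endothelium were also listed. Their values are not given here, so the share of such cells is left unknown. The start regions of the 8 macrophage genes lay below basal in C57 at 24 h, their summed H3K27ac going from 4778 to 2045 normalized tags. The part of this in the lower members was not tested.

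Scavenger receptors bind modified lipoproteins, microbial surfaces, apoptotic cells and other polyanionic ligands, and macrophages use them to clear such material. They share this function rather than a common fold. Msr1 (SR-A) and Marco are collagen-like class A receptors. Scarb1 (SR-BI, a receptor for high-density lipoprotein) and Scarb2 (LIMP-2, which carries glucocerebrosidase to the lysosome) belong to class B. Olr1 (LOX-1) is a C-type lectin-like receptor for oxidized low-density lipoprotein. Stab1 (stabilin-1) is a large receptor that clears acetylated lipoprotein and matrix proteins, and Cd163 takes up haptoglobin-bound haemoglobin. IL-4 acts through the transcription factor STAT6, and EGR2 is a zinc finger factor that IL-4 induces in macrophages.

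The sequences that the results turn on are those of 2 places upstream of Olr1, 1 distal place upstream of Stab1 and the promoters of both genes. The central 300 bases of each place are given 5′ to 3′ from the plus strand of mm10, and the 250 bases before each start from the minus strand, on which both genes lie (RefSeq, GRCm38.p6). Capitals mark matches on either strand to TTCNNNNGAA (STAT6), GTGGGNG (EGR), GAGGAAG (PU.1) and TTGCNNAA (C/EBP).
Olr1, EGR2 site 7104 bp upstream of the start, chr6:129514120-129514419: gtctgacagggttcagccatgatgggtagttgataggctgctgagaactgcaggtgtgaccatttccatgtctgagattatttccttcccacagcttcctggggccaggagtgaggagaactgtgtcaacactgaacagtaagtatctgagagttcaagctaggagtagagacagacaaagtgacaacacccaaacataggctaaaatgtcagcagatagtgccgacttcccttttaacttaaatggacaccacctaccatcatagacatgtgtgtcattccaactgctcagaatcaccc
Olr1, region 8086 bp upstream of the start, chr6:129515102-129515401: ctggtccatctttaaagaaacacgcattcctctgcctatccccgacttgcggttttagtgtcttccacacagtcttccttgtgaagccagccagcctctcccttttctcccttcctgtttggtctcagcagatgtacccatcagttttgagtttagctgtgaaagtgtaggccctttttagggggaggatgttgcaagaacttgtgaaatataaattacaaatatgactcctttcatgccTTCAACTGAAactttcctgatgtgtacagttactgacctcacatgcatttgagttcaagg
Stab1, region 20937 bp upstream of the start, chr14:31189429-31189728: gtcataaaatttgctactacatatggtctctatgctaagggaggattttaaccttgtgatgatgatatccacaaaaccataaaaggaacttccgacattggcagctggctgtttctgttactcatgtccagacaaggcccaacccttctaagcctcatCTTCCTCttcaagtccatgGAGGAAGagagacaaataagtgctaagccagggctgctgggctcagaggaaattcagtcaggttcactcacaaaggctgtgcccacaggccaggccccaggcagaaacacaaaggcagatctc
Olr1 promoter, chr6:129507166-129507415: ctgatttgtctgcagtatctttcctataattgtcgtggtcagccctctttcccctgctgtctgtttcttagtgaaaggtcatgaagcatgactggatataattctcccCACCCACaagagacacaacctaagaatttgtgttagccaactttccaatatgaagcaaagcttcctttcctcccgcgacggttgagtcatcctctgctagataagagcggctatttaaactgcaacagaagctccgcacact
Stab1 promoter, chr14:31168642-31168891: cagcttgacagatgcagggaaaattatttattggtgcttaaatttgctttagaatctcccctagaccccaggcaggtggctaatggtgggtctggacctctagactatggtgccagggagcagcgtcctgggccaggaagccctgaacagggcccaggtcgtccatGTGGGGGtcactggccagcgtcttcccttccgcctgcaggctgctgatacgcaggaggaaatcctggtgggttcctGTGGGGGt

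Both Olr1 places lie in the neighbouring gene Tmem52b, in introns except for a coding exon of Tmem52b inside the EGR2 site, and the Stab1 place lies in an intron of Nisch. The window at 8086 bp held 1 STAT6 match, TTCAACTGAA at bases 241 to 250, and windows of that length held such a match in 7.19% of 67730 C57 regions. The EGR2 site at 7104 bp held 0 matches to any of the 4 motifs, while 52.8% of the 4677 genotype sites held an EGR match. The Stab1 distal window held 2 PU.1 matches, at bases 159 to 165 and 178 to 184, and 25.1% of C57 regions held at least 1. Each promoter held an EGR match, 1 at Olr1 and 2 at Stab1, as did 28.1% of 32851 promoters. A match is a run of letters and no measure of binding.

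IL-4 was followed by higher H3K27ac upstream of Olr1 in every strain, from a low basal level. In C57 the region 8086 bp upstream had 8.14 and 3.57 normalized tags in the basal libraries (12 and 5 reads) and 73 and 78.1 at 24 h (86 and 119 reads). The BALB region at 8094 bp had 7.35 and 4.77 basal and 46.69 and 28.11 at 24 h. The overlapping NOD region had 9.14 and 9.53 basal and 55.69 and 81.05 at 24 h. Basal and 24 h libraries did not overlap. The PWK region at 8057 bp had 15.45 and 18.79 basal and 113.8 and 78.26 at 24 h. The SPRET region at 8122 bp had 5.98 and 7.9 basal and 71.41 and 30.15 at 24 h. Here too every 24 h library lay above both basal ones. Of all regions, 18.8% in C57, 18.2% in SPRET, 14.6% in PWK, 16.6% in NOD and 13% in BALB were higher at 24 h with no overlap.

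The neighbouring region about 7.2 kb upstream, where the table held it, was also higher at 24 h with no overlap. At 7152 bp NOD had 16.62 and 13.49 normalized tags basal and 110.7 and 145.2 at 24 h. At 7166 bp BALB had 8.82 and 8.94 basal and 88.1 and 40.49 at 24 h, and at 7250 bp PWK had 24.03 and 11.75 basal and 183.2 and 109.8 at 24 h. In these 3 strains the 2 regions touch or overlap, so their values are not independent. Values of a strain come from a table of its own, and strains were not tested against each other.

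Tested with limma over each whole table, the rise passed an adjusted p of 0.05 in BALB, PWK and SPRET. On the log2(normalized tags + 1) scale it was 2.62 ± 0.57 (SE, adjusted p = 0.000642) at 7166 bp in BALB and 2.42 at 8094 bp (adjusted p = 0.00174). It was 3.0 at 7250 bp in PWK (adjusted p = 0.0149) and 2.40 at 8057 bp (adjusted p = 0.0412), and 2.59 ± 0.51 at 8122 bp in SPRET (adjusted p = 0.0164). It was 3.57 at 8086 bp in C57 (adjusted p = 0.108) and 3.0 at 7152 bp in NOD (adjusted p = 0.0837), which did not pass with 2 libraries per condition. In C57, edgeR on recovered reads gave adjusted p = 0.0317 and the limma fit without basal replicate 1 gave 0.0249. In NOD, DESeq2 gave 6.34e-06, a filter on low values 0.0472 and the limma fits without either basal library 0.00368 at the lowest. With median-ratio scaling the adjusted p was 0.0528 and 0.0698 in PWK and below 0.05 in BALB and SPRET.

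Leaving out libraries 1 at a time kept the sign of each of these differences. The call at 7166 bp in BALB was lost without 24 h replicate 1 or either basal library (log2 differences of 2.07 to 3.17, adjusted p up to 0.111) and that at 8094 bp without 24 h replicate 1 or basal replicate 2 (2.07 to 2.78, up to 0.0843). Both PWK calls were lost without either 24 h library (2.51 to 3.49 and 2.14 to 2.67, up to 0.936) and the SPRET call without any of its 4 libraries (1.98 to 3.2, up to 0.364).

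**Figure D1:**
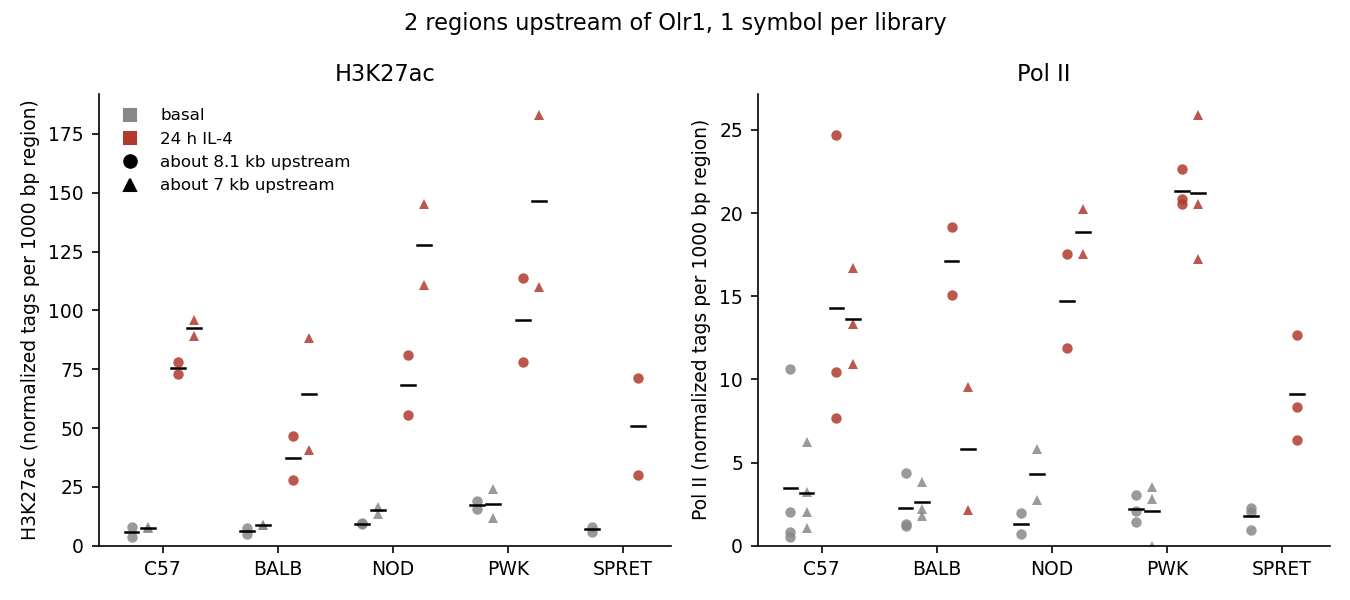
H3K27ac (left) and Pol II (right) in normalized tags per 1000 bp region at about 8.1 kb (circles) and about 7 kb (triangles) upstream of Olr1, with 1 symbol per library, black bars for group means, grey for basal and red for 24 h of IL-4. H3K27ac at 24 h lies above both basal libraries in each strain, with the highest library, 183.2 normalized tags, in PWK.

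Pol II was called higher at both Olr1 regions in PWK and at the farther one in BALB. In PWK it went from 1.41, 2.1 and 3.03 normalized tags to 20.85, 22.63 and 20.52 at 8057 bp (limma, log2 difference 2.84, adjusted p = 0.00455) and from 3.53, 2.8 and 0 to 25.89, 17.24 and 20.52 at 7250 bp (3.09, adjusted p = 0.0132). In BALB it went from 1.28, 1.19 and 4.38 to 19.18 and 15.08 at 8094 bp (2.59, adjusted p = 0.0461). The PWK calls were kept with libraries paired by replicate number, and the BALB call was lost under median-ratio scaling (adjusted p = 0.359) and without any of its 5 libraries (adjusted p of 0.125 to 0.772). The PWK call at 8057 bp was lost without 24 h replicate 2 (adjusted p = 0.0775), and that at 7250 bp without 24 h replicate 2 or 3 or basal replicate 2 or 3 (up to 0.129). The other strains also had higher means at 24 h, without a call. SPRET had 0.97, 2.28 and 2.05 basal and 12.68, 6.36 and 8.31 at 24 h at 8122 bp (1.86, adjusted p = 0.0891), and C57 10.61, 0.8, 0.54 and 2.03 basal and 24.68, 10.47 and 7.7 at 24 h at 8086 bp (2.12, adjusted p = 0.249). NOD had 5.84 and 2.74 basal and 17.53 and 20.24 at 24 h at 7152 bp (1.97, adjusted p = 0.411). The groups overlapped in C57 and not in SPRET or NOD. Of all regions, 7.05% in SPRET and 17.4% in NOD were higher in Pol II at 24 h with no overlap. Whether strains differ in this was not tested. The BALB regions at 8094 and 7166 bp lie 2704 and 1776 bp from the Tmem52b start, nearer than to that of Olr1. At the Olr1 start itself Pol II overlapped between groups at 24 h. It was 14.35, 4.81, 0 and 2.03 basal and 21.34, 5.46 and 1.28 at 24 h in C57 (limma, 0.77, adjusted p = 0.935). In NOD it was 5.19 and 3.42 basal and 5.09 and 4.05 at 24 h (0.08, adjusted p = 0.996).

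In C57 the gain at Olr1 was present 1 h after IL-4. At 8102 bp upstream H3K27ac was 8.14 and 3.57 normalized tags basal, 83.49 and 34.08 at 1 h, 104.7 and 52.34 at 6 h and 72.15 and 69.57 at 24 h. At 6866 bp it was 7.46 and 7.84 basal, 68.03 and 26.16 at 1 h, 61.61 and 71.81 at 6 h and 89.13 and 95.82 at 24 h. Every library after IL-4 lay above both basal ones at either place.

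The time course was fitted in limma with all times sharing an estimate of the spread and the basal libraries shared by the 3 contrasts. The region at 8102 bp was higher by 3.07, 3.54 and 3.47 on the log2 scale at 1, 6 and 24 h (adjusted p = 0.0127, 0.00336 and 0.0067), and that at 6866 bp by 2.32, 2.96 and 3.43 (adjusted p = 0.0229, 0.00669 and 0.00477). At the Olr1 start H3K27ac was lower in level, at 6.11 and 1.43 basal, 37.88 and 7.23 at 1 h, 33.88 and 34.08 at 6 h and 21.22 and 18.38 at 24 h, and passed at 6 h (3.07, adjusted p = 0.0188). The C57 basal and 24 h libraries of the time course are those of the C57 strain table, which gave adjusted p = 0.108 at 8086 bp when fitted alone, so the pair of tables is no independent repeat. Without basal replicate 2 the calls at 8102 bp at 1 and 24 h (adjusted p up to 0.124 and 0.0574), at 6866 bp at 1 h (up to 0.148) and at the start at 6 h (up to 0.189) were lost. Leaving out either 6 h library ended the 6 h calls at 6866 bp and at the start and the 1 h call at 6866 bp, 6 h replicate 1 that at 8102 bp (up to 0.121), and basal replicate 1 the 1 h call at 6866 bp.

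**Figure D2:**
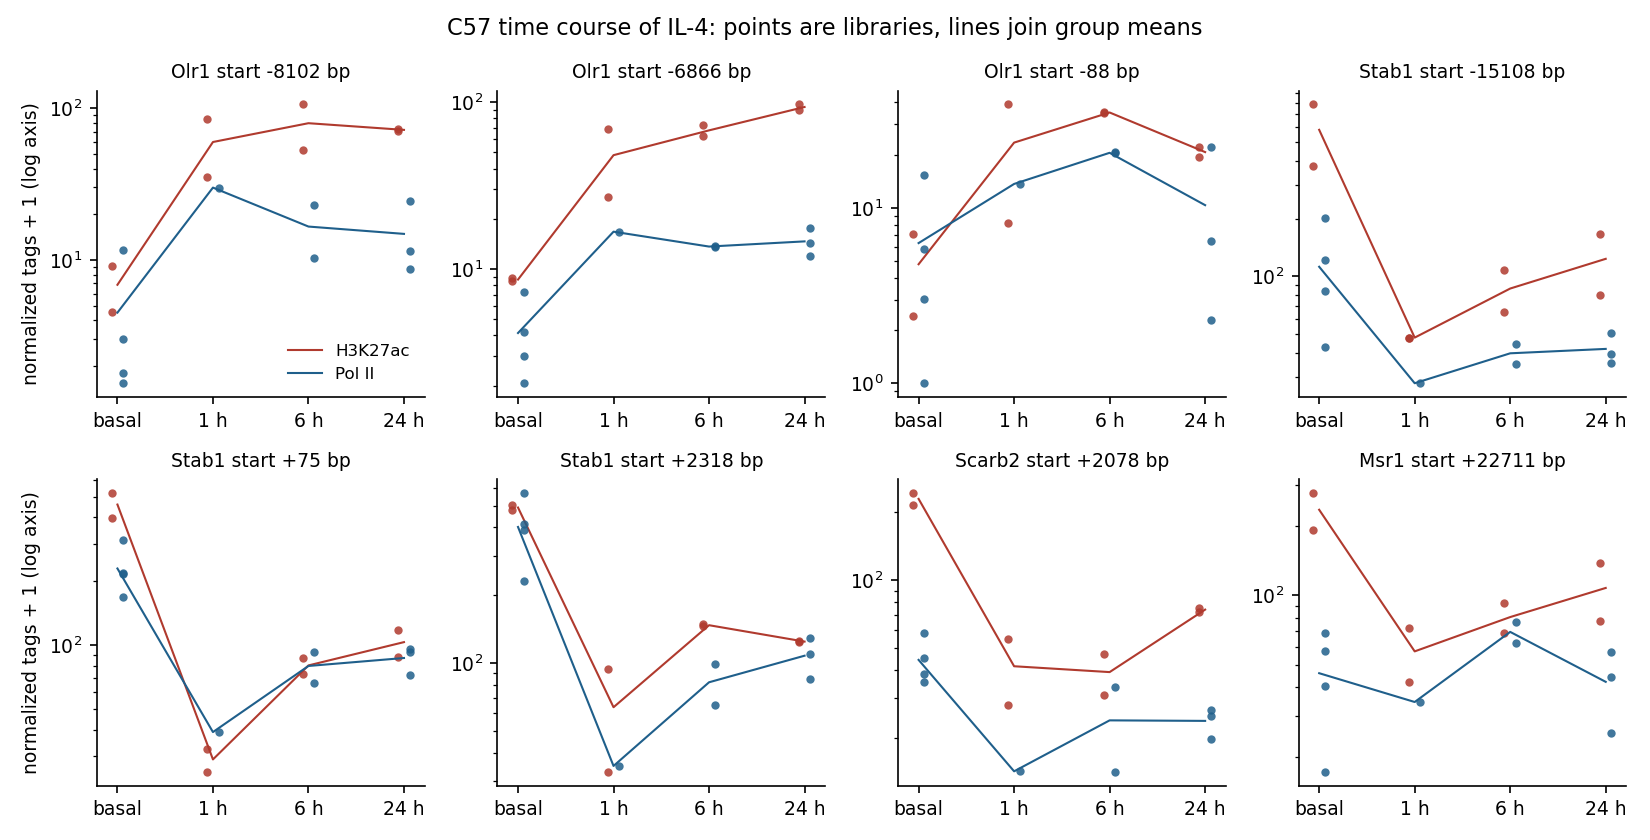
Normalized tags + 1 (log axis) of H3K27ac (red) and Pol II (blue) at 8 regions of the C57 time course, named by the gene and the distance in bp from its start, with points for libraries and lines joining group means at basal, 1, 6 and 24 h. H3K27ac climbs at the Olr1 regions, to 89.13 and 95.82 at 24 h at 6866 bp upstream, and drops at 1 h at the Stab1, Scarb2 and Msr1 regions, to 31.69 and 24.44 at the Stab1 start.

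Some regions counted for Olr1 by distance lie at its neighbour Clec7a, the gene of the beta-glucan receptor Dectin-1, whose start is about 34 kb downstream. There Pol II was much higher after IL-4. In C57 at 46027 bp downstream Pol II was 112.9, 117.2, 147.9 and 90.12 normalized tags basal, 898.7 at 1 h (a single library), 777 and 802.5 at 6 h, and 774.3, 661.7 and 168 at 24 h, and the 6 h difference passed in limma (2.77, adjusted p = 0.0203). In PWK at 45047 bp it was 38.8, 82.53 and 110.6 basal and 571.6, 392.2 and 325 at 24 h (2.54, adjusted p = 0.00205). In SPRET at 34353 bp it was 95.79, 150.8 and 142.7 basal and 425.1, 371.8 and 220.7 at 24 h (1.35, adjusted p = 0.0479).

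H3K27ac at 46027 bp, just past the end of Clec7a, was low, at 8.82 and 10.7 basal and 19.52 and 22.31 at 24 h. At 35594 bp, in an intron of Clec7a, it was 202.8 and 209.6 basal and 213.9 and 185.1 at 24 h. The C57 call at 46027 bp was lost without basal replicate 3 or 4 or either 6 h library (adjusted p up to 0.275), the PWK call without 24 h replicate 2 (0.0645) and the SPRET call without 5 of its 6 libraries, 24 h replicate 3 being the exception (up to 0.231). Counts given for Olr1 include these regions.

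Stab1 moved the other way. At its start H3K27ac in C57 was 390.1 and 503.4 normalized tags basal and 81.49 and 108.3 at 24 h. It was 241.9 and 506.4 basal and 94.75 and 112.6 at 24 h in NOD, and 165.3 and 320.5 basal and 51.2 and 41.45 at 24 h in BALB. Basal and 24 h libraries did not overlap in these 3 strains. The tables of PWK and SPRET held no region within 1 kb of the Stab1 start.

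The strain fits did not call the Stab1 start. The log2 differences (limma) were -2.23 ± 0.35 in C57 (adjusted p = 0.108), -2.30 in BALB (adjusted p = 0.0596) and -1.75 ± 0.48 in NOD (adjusted p = 0.225). Median-ratio scaling and edgeR called 0 of 22 Stab1 regions in H3K27ac in C57 and in NOD, and DESeq2 called 5 and 1 lower. For BALB, median-ratio scaling gave adjusted p = 0.0177 and edgeR on recovered reads 0.0202, and the fits without 24 h replicate 1 or 2 passed (as low as 0.00265). The distal region 20937 bp upstream was the strongest distal Stab1 region in C57 H3K27ac, with 996.6 and 1073 normalized tags basal and 459.2 and 374.8 at 24 h in C57. It had 430.9 and 336.5 basal and 127 and 177.7 at 24 h in SPRET, and 848 and 769.7 basal and 701.7 and 314 at 24 h in PWK. NOD had 1017 and 1126 basal and 562.7 and 530.2 at 24 h there, and BALB 759.1 and 909.7 basal and 609.2 and 288.2 at 24 h. All 5 strains were lower at 24 h with no overlap, by -1.32 ± 0.27 in C57 (adjusted p = 0.116). With 2 libraries against 2 this is common, since 34.8% of all regions in C57, 23.9% in SPRET, 25.3% in PWK, 27.6% in NOD and 28.8% in BALB were lower with no overlap.

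Calls within 50 kb of the Stab1 start in the strain tables came from SPRET, PWK and, for Pol II, C57. The called SPRET H3K27ac regions lie in the neighbour Nisch, in an intron and in the last exon of a transcript. In SPRET H3K27ac fell at 26590 bp upstream from 133.4 and 135 to 24.68 and 50.62 (limma, -1.89, adjusted p = 0.0243) and at 15288 bp from 211.2 and 231.1 to 29.97 and 96.92 (-2.01, adjusted p = 0.0365). Both calls were lost under median-ratio scaling (adjusted p = 0.0907 and 0.138) and without any of the 4 libraries (up to 0.416 and 0.44). In PWK Pol II fell at 15172 bp from 74.07, 120.3 and 140.2 to 46.02, 34.48 and 36.77 (-1.45, adjusted p = 0.0231) and at 14497 bp from 74.07, 102.1 and 102.3 to 34.51, 43.1 and 38.48 (-1.23, adjusted p = 0.0345). These calls were kept under the pairing. Leaving out a library kept the call at 15172 bp only without 24 h replicate 1 or basal replicate 1, and that at 14497 bp only without basal replicate 1 (adjusted p up to 0.182 and 0.185).

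Within Stab1 Pol II also dropped. In C57 at 2267 bp downstream of the start it was 242.1, 427.7, 579.4 and 396.9 normalized tags basal and 114.7, 83.28 and 130.8 at 24 h (limma, -1.86, adjusted p = 0.0349, and 0.0136 with the pairing). In SPRET at 2404 bp it was 105.5, 54.06 and 47.75 basal and 5.92, 19.79 and 10.16 at 24 h (-2.49, adjusted p = 0.0208, and 0.000502 with the pairing). The C57 call was lost without 24 h replicate 1 or 2 or basal replicate 2, 3 or 4 (up to 0.206), and the SPRET call without any library but 24 h replicate 2 (up to 0.128).

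Over time in C57 the lowest Stab1 values came at 1 h. At the start H3K27ac was 396.2 and 519.1 normalized tags basal, 31.69 and 24.44 at 1 h, 72.39 and 86.41 at 6 h and 87.43 and 117.5 at 24 h. The difference from basal was -3.98 at 1 h (limma, adjusted p = 0.00349) and -2.50 at 6 h (adjusted p = 0.0122). The 1 h call was kept in all 8 fits that left out a library (adjusted p up to 0.02), and the 6 h call was lost without basal replicate 2 or either 6 h library (up to 0.197).

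At 15108 bp upstream H3K27ac went from 371.8 and 781.5 to 47.15 and 47.16 at 1 h and 64.69 and 106.5 at 6 h (-3.49 and -2.68, adjusted p = 0.00877 and 0.0143). At 20937 bp it went from 996.6 and 1073 to 242 and 84.68 at 1 h (-2.84, adjusted p = 0.0157) and was 393.5 and 514.8 at 6 h. Pol II at 2318 bp downstream was 231.5, 414.9, 567.6 and 388.8 basal, 34.02 at 1 h in the single library, 64.07 and 98.48 at 6 h, and 108.7, 83.74 and 128.3 at 24 h, and passed at 6 and 24 h (-2.25 and -1.85, adjusted p = 0.0195 and 0.0243). The 1 h difference of -3.45 (adjusted p = 0.0263) rests on 1 library, assumed in the fit to vary like the other groups. Without basal replicate 2 the H3K27ac calls at 15108 bp (up to 0.0911 at 1 h and 0.247 at 6 h) and at 20937 bp (0.144) were lost, the 6 h call at 15108 bp also without either 6 h library. The Pol II calls were lost without basal replicate 2, 3 or 4. The 1 h call was also lost without 24 h replicate 1 (up to 0.0807), the 6 h call without either 6 h library (up to 0.331) and the 24 h call without 24 h replicate 1 or 2 (up to 0.147).

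Taking all member regions, H3K27ac was lower at 24 h more often than it was higher. The rule counted here, a 2.5-fold difference of H3K27ac group means + 1 with at least 16 normalized tags in either group and no test, is looser than that of the study, which also set conditions on Pol II and on the place of a region. By it 5 C57 regions were higher and 20 lower, where 3.46% and 7.55% of all C57 regions were. SPRET had 1 higher and 6 lower (2.64% and 0.939% of all regions), PWK 3 and 5 (3.1% and 3.01%), NOD 2 and 14 (3.24% and 5.14%) and BALB 3 and 13 (2.84% and 5.13%). Of the C57 regions, 4 of the 5 higher ones belonged to Olr1 and 1 to Stab1, and of the 20 lower ones 11 belonged to Stab1, 4 each to Scarb1 and Scarb2 and 1 to Cd163. Within 50 kb of the Stab1 start lay 6 of the 6 lower SPRET regions, 2 of 5 in PWK, 9 of 14 in NOD and 8 of 13 in BALB, and 0 lay at Olr1 in any strain. Counts and medians given for Stab1 include regions at its neighbours, among them regions in Nisch and a lower SPRET region 14 bp from the Nt5dc2 start.

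The share of H3K27ac tags that fell in regions was 65.4% and 59.6% in the C57 basal libraries and 43.2% and 38.2% at 24 h. Over all strains it was 48.4% to 65.4% basal and 28.7% to 57.1% at 24 h, with no overlap in C57 and NOD and overlap in BALB, PWK and SPRET. Its part in the counts was not tested. With median-ratio scaling over the regions the counts were 1 higher and 4 lower in SPRET, 3 and 5 in PWK, 4 and 10 in NOD, 3 and 6 in BALB and 6 and 10 in C57. Over all regions they were then 1671 and 358 of 54755 in SPRET, 2575 and 974 of 60175 in PWK and 3058 and 2130 of 68932 in NOD. In BALB they were 2394 and 1128 of 54022, and in C57 3564 and 2185 of 67742. The members' median log2 fold was -0.23 in SPRET, -0.61 in PWK, -0.85 in NOD, -0.72 in BALB and -0.86 in C57, beside -0.07, -0.17, -0.22, -0.26 and -0.28 over all regions of those tables. With median-ratio scaling the members' medians were, in that order, -0.15, -0.40, -0.59, -0.49 and -0.52. Those over all regions were then 0.0004, 0.01, -0.01, 0.02 and 0.03.

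**Figure D3:**
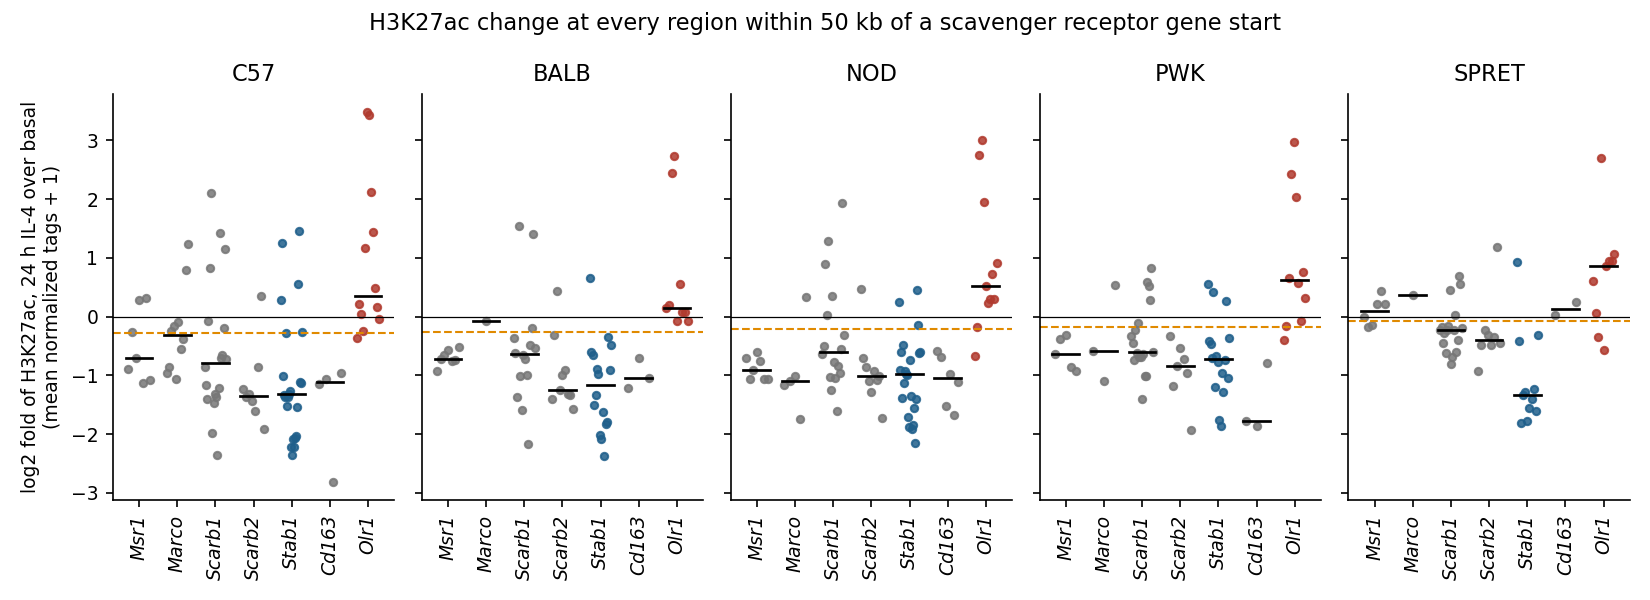
The log2 fold of H3K27ac at 24 h over basal (group means of normalized tags + 1) at each member region, by gene and strain, with a black bar for the gene's median, a solid line at 0 and a dashed line at the median of all regions of the strain. Olr1 (red) holds the largest rises and a median above 0 in each strain, from 0.15 in BALB to 0.86 in SPRET, and Stab1 (blue) a median below the dashed line, from -1.33 in SPRET to -0.73 in PWK.

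Counted by limma over the whole table, members passed as follows. For H3K27ac at 24 h, 0 of 81 members were called in C57 (0% of all regions), where 35 members had an unadjusted p below 0.05, edgeR called 2 and DESeq2 8. In NOD 0 were called (0.0566%), with 17 below 0.05 unadjusted, 0 called by edgeR and 3 by DESeq2. With a replicate block, an alternative given below, limma called more H3K27ac members in C57 and NOD. In BALB 2 were higher and 1 lower (2.26%), in SPRET 1 and 2 (1.19%), and in PWK 2 were higher (0.535%). For Pol II 0 were called in NOD (0%), with 20 below 0.05 unadjusted, 1 called by edgeR and 7 by DESeq2. In PWK 5 were higher and 2 lower (1.72%), in SPRET 1 and 2 (1.05%), in BALB 1 was higher (0.707%) and in C57 1 lower (0.319%). Each H3K27ac or Pol II region called higher at 24 h in these tables lay within 50 kb of the Olr1 start. With Pol II libraries paired by number, the members called were 3 higher and 6 lower in SPRET (8.39% of all regions), 6 and 9 in PWK (9.78%) and 2 and 4 in C57 (0.809%). The counts below 0.05 unadjusted, and those of edgeR and DESeq2, have no share of all regions beside them here. They are therefore no result about the members.

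In the C57 time course H3K27ac was called higher at 2 and lower at 23 of the 95 members at 1 h (9.72% of all regions), at 3 and 6 at 6 h (5.13%) and at 2 and 0 at 24 h (1.45%). The 23 lower regions at 1 h were 14 of 22 at Stab1, 4 at Scarb2, 3 at Scarb1 and 2 at Msr1. The 1 h libraries had 43.95% and 20.54% of their tags in regions, against 69.72% and 63.77% basal, and the median of all regions was -0.63 against -1.13 for the members. With median-ratio scaling 7 members, each of them at Stab1, were called lower at 1 h and 3 higher, at Olr1. For Pol II limma called 1 lower at 1 h (0.0911%), 3 higher and 1 lower at 6 h (0.566%) and 1 lower at 24 h (0.677%), and the 1 h fit has a single Pol II library. With the pairing the counts higher and lower were 2 and 3 at 1 h (0.477%), 3 and 2 at 6 h (1.01%) and 5 and 4 at 24 h (2.36%).

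Of the class B receptors, Scarb1 and Scarb2 had regions called lower in H3K27ac in C57 at 1 and 6 h. At 1 h these were 3 of 22 regions at Scarb1 and 4 of 9 at Scarb2, where 9.72% of all regions were called. At 6 h they were 1 of 22 regions at Scarb1 (0 with median-ratio scaling) and 2 of 9 at Scarb2, where 5.13% of all regions were called. The Scarb1 counts lie near those shares and are no result about the gene. At the Scarb1 start H3K27ac was 197.4 and 196.1 normalized tags basal, 30.92 and 54.04 at 1 h, 62.38 and 96.15 at 6 h and 63.66 and 80.07 at 24 h (limma at 1 h, -2.24, adjusted p = 0.0225). The intergenic region 17320 bp upstream followed it, at 134.3 and 148.3 basal and 35.56 and 26.85 at 1 h (-2.16, adjusted p = 0.0229). Both calls were lost with median-ratio scaling, in which no Scarb1 or Scarb2 region was called at 1 h, and without either basal or either 6 h library (up to 0.162 and 0.174).

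At Scarb2, 2078 bp into the gene, H3K27ac was 214.4 and 243.2 basal, 27.06 and 54.04 at 1 h, 30.03 and 46.25 at 6 h and 74.7 and 71.54 at 24 h. The differences were -2.54 at 1 h and -2.58 at 6 h (limma, adjusted p = 0.0163 and 0.0125). At the Scarb2 start values were lower, from 47.49 and 86.99 basal to 11.6 and 13.77 at 1 h and 12.32 and 12.17 at 6 h (-2.26 and -2.30, adjusted p = 0.0259 and 0.0271). Without basal replicate 2 these 4 calls were lost (up to 0.134, 0.222, 0.21 and 0.288), and those at the start and the 6 h call at 2078 bp also without either 6 h library. With median-ratio scaling the 6 h call at 2078 bp was kept (adjusted p = 0.0256) and that at the start was not (0.0524).

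Across strains the start regions of Scarb1 and Scarb2 were lower at 24 h in mean, without a call. Scarb1 had H3K27ac of 194 and 193.9 basal and 62.81 and 76.79 at 24 h in C57, but 118.8 and 225.2 basal and 130.5 and 161.5 at 24 h in SPRET, where the groups overlapped. In the Scarb1 intron 7876 bp from the start BALB fell from 33.07 and 76.85 to 8.28 and 14.77 (limma, -2.09 ± 0.57, adjusted p = 0.0169), a call lost under median-ratio scaling (0.123) and without 24 h replicate 1 or basal replicate 2 (up to 0.384). The C57 region at 7827 bp had 38.67 and 105.5 basal and 7.64 and 19.03 at 24 h (-2.31, adjusted p = 0.144).

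**Figure D4:**
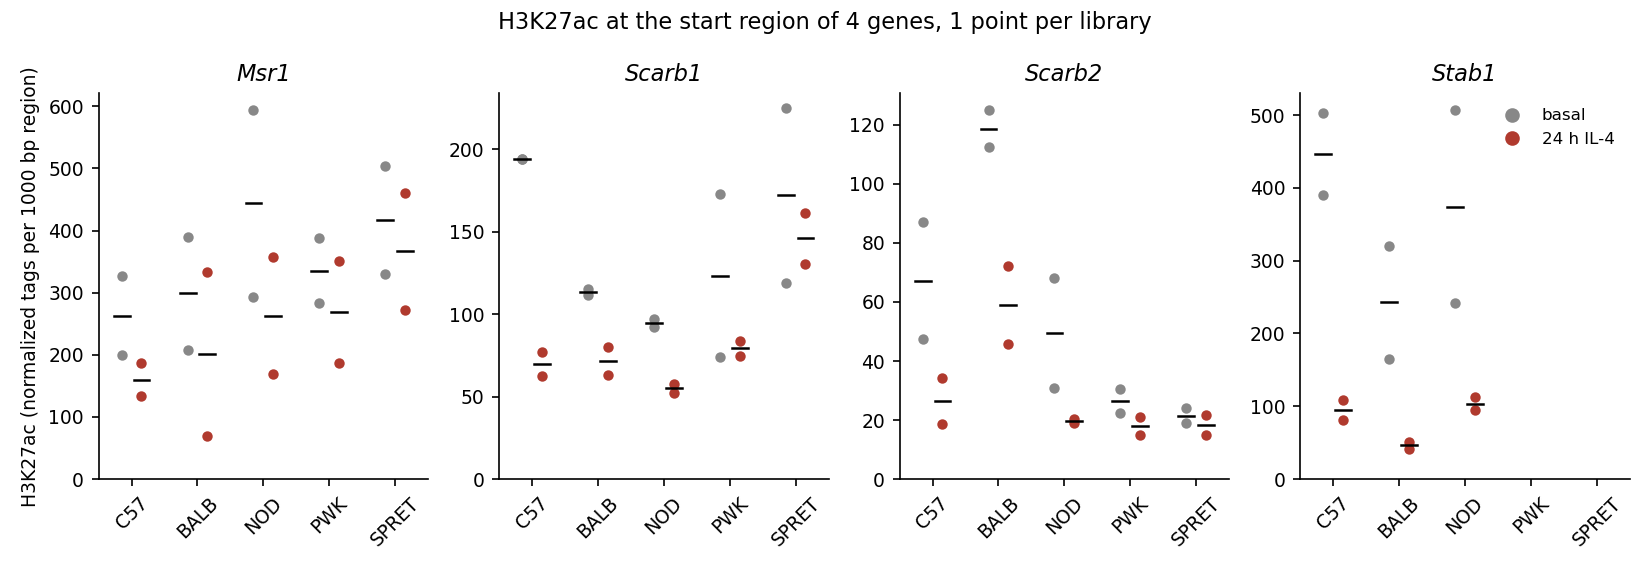
H3K27ac in normalized tags at the start region of Msr1, Scarb1, Scarb2 and Stab1 by strain, 1 point per library, with black bars for means, grey for basal and red for 24 h of IL-4. Stab1 libraries separate in C57, BALB and NOD (no start region in the PWK and SPRET tables), and basal and 24 h libraries of Msr1 overlap in BALB, NOD, PWK and SPRET.

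Msr1 carried more H3K27ac at its start than Marco, the other class A receptor, and its start was not called. At its start H3K27ac in C57 was 326.3 and 198.9 basal and 186.7 and 133.2 at 24 h (limma, -0.69 ± 0.39, adjusted p = 0.334), and in NOD 594.3 and 293.7 basal and 357.3 and 168.8 at 24 h. Within the gene, at an exon 22711 bp from the start, the C57 level was 191.3 and 277.4 basal, 71.12 and 41.31 at 1 h, 91.64 and 67.55 at 6 h and 76.39 and 137.2 at 24 h. The 1 h difference there was -2.07 (adjusted p = 0.0322), and that at 47747 bp, from 98.37 and 127.6 to 20.87 and 34.77, was -2.02 (adjusted p = 0.033). Both were lost under median-ratio scaling and without either basal or either 6 h library, and that at 22711 bp also without 1 h replicate 2 (up to 0.228 and 0.214).

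Marco and Cd163 were weakly or unevenly marked. At the Marco start H3K27ac was 20.35 and 5.7 in C57 basal and 11.88 and 5.25 at 24 h, 73.15 and 26.19 in NOD basal and 23.87 and 4.5 at 24 h, and 1.72 and 0 in PWK basal and 3.37 and 0 at 24 h. Replicates of a group differed several-fold at Marco, as at 27667 bp upstream, with 85.48 and 13.55 basal and 41.59 and 8.53 at 24 h in C57, and no Marco region was called by limma with all libraries and no replicate block. With Pol II libraries paired by number, 1 Marco region was called lower at 24 h of the time course. Cd163 had no region within 1 kb of its start. A region 16975 bp into the gene had H3K27ac of 56.31 and 175.4 basal and 30.56 and 87.29 at 24 h in C57 and was marked by H3K4me3, a promoter mark, at 245.3 and 298.9 basal and 194.9 and 238 at 24 h.

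Of 13 other scavenger receptor genes, 5 had a start region in C57. Each of the 5 had a log2 fold of H3K27ac below 0 at 24 h, with 0 called by limma, which called 0 of all C57 regions. The median fold was itself below 0, at -0.28 over all C57 regions and -0.62 over those past the fold rule's minimum. Cd68, a lysosomal scavenger protein that is also 1 of the 8 macrophage markers, went from a mean of 799.8 to 427.4 (adjusted p = 0.177). A comparison list of 8 genes known to respond to IL-4 (such as Arg1, Slc7a2 and Cish) had 6 start regions in C57, 5 of them above 0 in H3K27ac with a median of 1.94. In BALB and in SPRET 3 of its 5 start regions were called higher, where 2.26% and 1.19% of all regions were called. Its calls in NOD and PWK are not given here. The start-region profile of Msr1 over 20 H3K27ac libraries of the 5 strains was most like those of E4f1 and Pgp (Pearson r = 0.946 each, a description over 9230 genes).

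H3K27ac upstream of Olr1 at 24 h was lower in macrophages with Cre. At the EGR2 site 7104 bp upstream Egr2flfl macrophages had 22.15 and 21.04 normalized tags basal and 95.48 and 109.8 at 24 h, and LyzMCreEgr2flfl macrophages 12.03 and 8.41 basal and 36.36 and 26.7 at 24 h. At 24 h both libraries with Cre lay below both without it, and in either genotype the 24 h libraries lay above the basal ones. The difference between genotypes at 24 h was -1.69 ± 0.31 (limma, adjusted p = 0.0014, with 24.7% of the 4677 sites called), and it passed in all 8 fits that left out a library (up to 0.035) and under median-ratio scaling (0.0187). Whether IL-4 raised it less with Cre was tested as an interaction, -0.66 ± 0.44 (adjusted p = 0.554), which did not pass.

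No other readout at the same site was called. C/EBPb and PPARg had groups that did not overlap, which 2 libraries against 2 can give without a difference. H3K4me2, a mark of enhancers, had 31.15 and 50.2 normalized tags in Egr2flfl and 31.04 and 54.63 with Cre at 24 h (0.06 ± 0.34), and PU.1, the macrophage pioneer factor, had 41.98 and 45.12 against 38.98 and 50.5 (0.03 ± 0.26). C/EBPb had 13.3 and 18.68 against 4.75 and 4.29 (-1.61 ± 0.98, adjusted p = 0.264), and PPARg 16.39 and 26.79 against 9.73 and 0 (-2.75 ± 1.62, adjusted p = 0.446). STAT6 had 9.96 and 3.54 against 5.15 and 7.89. Over all sites limma called 9.09% for H3K4me2, 8.25% for C/EBPb, 9.45% for PU.1, 0.0214% for STAT6 and 0% for PPARg, and 0 of the 2 member sites for each of these. Of those, 0 had an unadjusted p below 0.05, and edgeR and DESeq2 called 0. Pol II had 1 library per group, at 8.51 against 2.66 at 24 h, and no test.

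The other member site, 4608 bp upstream of Scarb2, was weakly marked. Its H3K27ac was 15.08 and 9.63 at 24 h in Egr2flfl and 11.43 and 8.13 with Cre (-0.30 ± 0.56, adjusted p = 0.748), overlapping values whose difference was 0.20 with median-ratio scaling. The deletion itself cannot be read from these tables, which hold no Egr2 transcript.

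**Figure D5:**
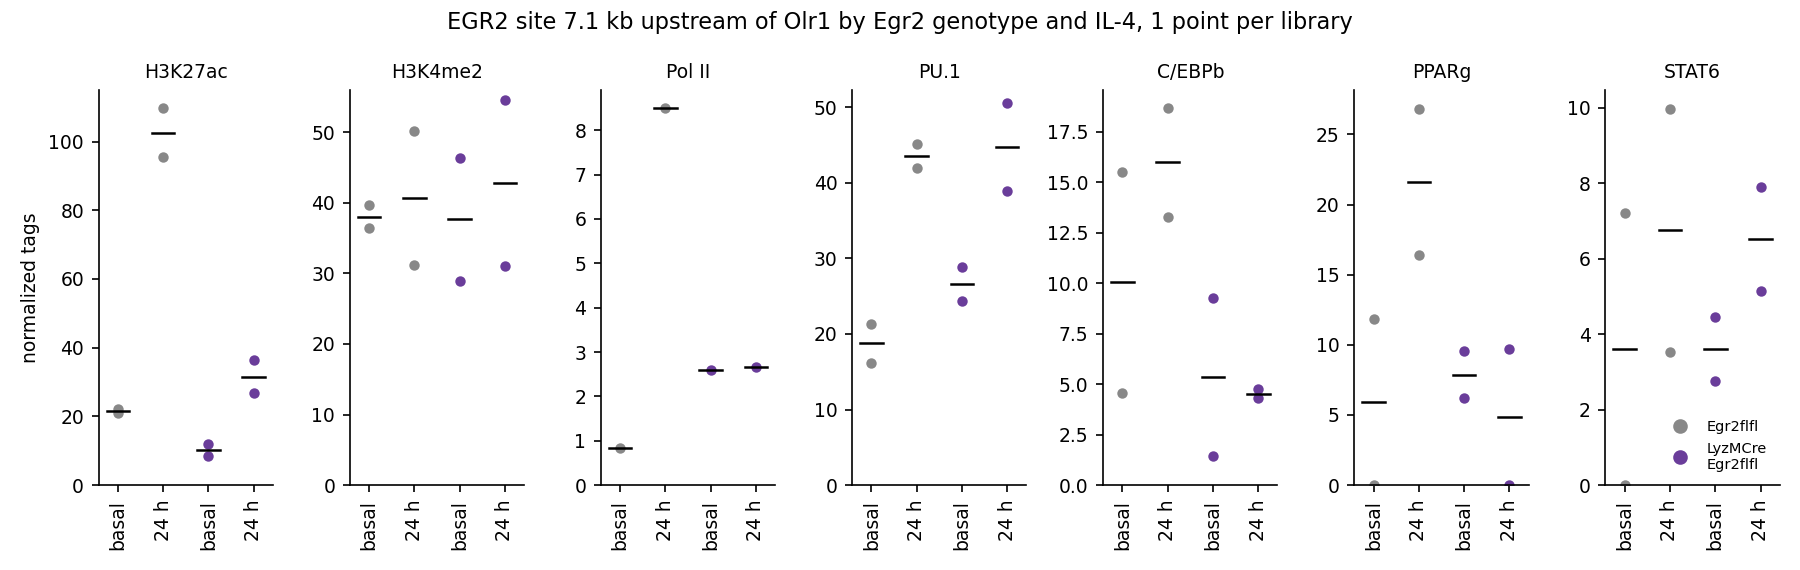
Normalized tags of 7 targets at the EGR2 site 7.1 kb upstream of Olr1, with grey for Egr2flfl and purple for LyzMCreEgr2flfl macrophages, basal and at 24 h of IL-4, 1 point per library and black bars for means (each panel has its own axis from 0). H3K27ac at 24 h separates by genotype, 95.48 and 109.8 against 36.36 and 26.7, and H3K4me2 and PU.1 overlap.

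EGR2 itself was bound within 50 kb of several members before IL-4. At the Scarb1 start EGR2 had 75.87 and 137 normalized tags basal, 37.03 and 127.3 at 1 h, 108.2 and 142.1 at 6 h and 150.4 and 106.6 at 24 h, and 17013 bp into Cd163 a site had 65.56 and 88.64 basal and 96.5 and 88.32 at 24 h. A site 38120 bp upstream of Stab1, at a promoter of its neighbour Nisch, had 69.78 and 94.01 basal and 192.1 and 108.5 at 24 h. Limma called 0 of the 31 member sites at 1, 6 and 24 h (0% of all sites each time, with 0, 1 and 0 members below 0.05 unadjusted, and 0 called by edgeR and DESeq2). The 1 h fit without 1 h replicate 2 called 3 of them lower.

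Peak lists, which stand for a group and have no replicate error, placed the factors at the Olr1 regions. The EGR2 site at 7104 bp had an EGR2 peak in the C57 24 h list and in no other EGR2 list. Because the genotype sites were chosen as EGR2 peaks induced at 24 h, its C57 peak at 24 h and not basal is no separate result. The site also had a PU.1 peak in all 10 basal and 24 h lists, PPARg peaks at 24 h in C57, NOD and PWK, and STAT6 peaks at 24 h in NOD and PWK. The region at 8086 bp had a C/EBPb peak in all 10 lists, STAT6 peaks in C57 at 1, 6 and 24 h and in BALB and PWK at 24 h but in no basal list, and EGR2 peaks at 24 h in C57, BALB, NOD and SPRET and also basal in BALB and NOD. The Stab1 region at 20937 bp had a PU.1 peak in all 10 lists and 0 EGR2 peaks. STAT6 at the Msr1 exon 22711 bp from the start had a peak in every one of its lists.

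Within 50 kb of the members the C57 lists held 9 EGR2 peaks basal and 30 at 24 h, 12 and 46 of PPARg, 26 and 41 of C/EBPb, 39 and 53 of STAT6 and 76 and 78 of PU.1. Those numbers moved with the length of the lists, which grew 3.49-fold for EGR2, 5.12-fold for PPARg and 2.08-fold for C/EBPb. With lists cut to equal length by score the ratios of 24 h to basal peaks near members were 1.22, 0.75 and 0.923. Of the 30 EGR2 peaks at 24 h, 10 were within 50 kb of Olr1, 7 of Stab1, 6 of Scarb1, 3 of Msr1, 2 each of Scarb2 and Cd163 and 0 of Marco.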

How the data were processed

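ChIP-seq values came from 9 tables (155 libraries) and 54 peak lists of a series of 267 samples, grouped by their labels. Reads were mapped by the authors to the genome of each strain with Bowtie2, moved to mm10 positions and kept as HOMER tag directories. Deposited signal values are tags per region, which the authors scaled to a library total of 10000000 and counted in 1000 bp, and for factors of the Egr2 genotypes in 300 bp. Deposited peaks were called per replicate and kept by IDR for a group, and the deposited score of a peak ranked lists cut to equal length. The submitters' notes list no versions. 4 value columns matched no sample and were left out.

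Values times library total gave whole reads (within 0.1 read) for 100% of 7268918 values. Limma 3.58.1 in R 4.3.3 (lmFit, eBayes with trend) was fitted on log2(normalized tags + 1) over all regions, two-sided, Benjamini-Hochberg adjusted p under 0.05, with no filter. A pseudocount understates changes of low regions. The count tests were edgeR 4.0.16 and DESeq2 1.42.0 on recovered reads. Other alternatives were a pseudocount of 5, the fold rule's minimum as a filter (16 normalized tags, 8 for Pol II), median-ratio scaling, a fold of 2, a 25 kb window, a replicate block and leaving out each library. Those for Pol II over time were chosen after seeing the data. The limma step was checked on simulated data with 200 changed regions. Python 3.11.15, pandas 2.3.3, numpy 2.4.6 and matplotlib 3.10.9 were used.

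Named regions of each member were its start region (within 1 kb), its strongest distal H3K27ac region in C57, the largest changes and, at most 2 per gene and comparison, those called by limma. Other values were chosen after they were seen. Genes are those of GENCODE vM21. The members and gene lists were chosen with earlier results of these data known.

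Labels do not say whether replicates are separate mice, so p-values measure the spread between these libraries. None of 99 replicate pairs was identical (chi-square per degree of freedom 1.50 to 19.7). Pol II libraries of the same number deviated together, with correlations of deviations from group means of 0.475, 0.487 and 0.517 in SPRET, 0.682, 0.529 and 0.596 in PWK, 0.215, 0.330 and 0.429 in C57 and at least 0.117 in the time course. For these a fit paired by number was run beside the unpaired one. Pol II adjusted p-values are from the unpaired fit unless the pairing is named. Other libraries were not treated as paired, although same-numbered H3K27ac libraries of the strains correlated at 0.507 to 0.729. Their fits with a replicate block are given below as an alternative.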

Additional observations from a re-analysis of the deposited data

Results flagged for a closer look

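In the 4 C57 basal Pol II libraries, 1 library stood far above the others at 2 regions. At the region 17331 bp upstream of Scarb1 it had 31.2 normalized tags and the other 3 had 19.26, 18.76 and 19.24. At the region 8086 bp upstream of Olr1 the same library, replicate 1, had 10.61 and the others had 0.8, 0.54 and 2.03. Chance alone marks about 1 in 20 groups of this size in this way.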

How the results depend on the processing

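Most groups have 2 libraries. Same-numbered libraries correlated in their deviations from group means at 0.507 to 0.729 for H3K27ac in the strains and 0.441 to 0.628 for Pol II in BALB and NOD, but with 2 pairs per strain, and no label that ties them, they were not taken as pairs. Over time the lowest value was 0.0289 for H3K27ac and -0.0733 for EGR2. A value of 16 normalized tags stood for 7.51 to 46.5 reads, which limits precision at weak regions. Libraries of a group also differed several-fold at Marco, and the part of each was not tested. Where values below differ from the report, the cause was not tested. The pseudocount kept all 57 named results on their side of the threshold. Of those results, 47 stayed there with the replicate block (9 gained a call, 1 lost it), 42 with median-ratio scaling (1 and 13), 43 with edgeR (2 and 11), 43 with DESeq2 (5 and 8) and 54 with the filter on low values (1 and 1). At Scarb2 -4608 bp the genotype difference of -0.295 changed sign, to 0.196 with median-ratio scaling, 0.163 with edgeR, 0.199 with DESeq2 and, over the fits leaving out a library, -0.594 to 0.00311 (without Egr2flfl 24 h replicate 1).

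Counts of member regions follow here and below. The shares of all regions under the same settings are not given beside them, so they are no result about the members. By the fold rule at 24 h, median-ratio scaling gave 16 in C57 and 9 in BALB, and a 2-fold limit 32 in NOD and 15 in PWK. For H3K27ac at 24 h limma with median-ratio scaling called 5 in BALB, 0 in PWK and 1 in SPRET, edgeR 5 in BALB, 2 in C57, 1 in PWK and 1 in SPRET, DESeq2 7 in BALB, 8 in C57 and 3 in NOD, and the filter 1 in NOD and 5 in SPRET. For Pol II at 24 h median-ratio scaling gave 0 in BALB and 3 in C57, the filter 0 in BALB, edgeR 3 in C57 and 1 in NOD, and DESeq2 3 in BALB, 8 in C57 and 7 in NOD. The replicate block raised H3K27ac calls to 10 in BALB, 42 in C57, 39 in NOD, 11 in PWK and 8 in SPRET. For Pol II the block gave 0 in BALB, 6 in C57, 23 in NOD, 15 in PWK and 9 in SPRET. The share of all regions called for Pol II in PWK also rose with it, from 1.72% to 9.78%. The block called Marco regions in H3K27ac, 1 lower in C57, 3 lower in NOD and, over time, 1 lower at 1 h and 1 higher at 6 h.

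In the H3K27ac time course, the block gave 40, 23 and 16 at 1, 6 and 24 h, and DESeq2 13, 16 and 8. Median-ratio scaling gave 10 at 1 h and 4 at 24 h, edgeR 13 at 1 h, the filter 5 and the pseudocount of 5 gave 4 at 24 h. For Pol II over time, with settings chosen after seeing the data, DESeq2 gave 9, 9 and 9, the block 5 at 1 h and 9 at 24 h, median-ratio scaling 6 and 4, and edgeR 4 and 5, while the filter gave 2 at 24 h. The ratio of peaks near members, 24 h to basal, was 0.923 for C/EBPb, 1.22 for EGR2 and 0.75 for PPARg with lists of equal length.

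Leaving out each library gave fold-rule counts of 20 to 31 in C57, 14 to 25 in BALB, 13 to 24 in NOD, 6 to 16 in PWK and 3 to 9 in SPRET. Limma counts for H3K27ac were 0 to 2 in C57, 0 to 13 in BALB, 0 to 10 in NOD, 0 to 4 in PWK and 0 to 0 in SPRET, and for Pol II 0 to 6, 0 to 1, 0 to 0, 0 to 7 and 0 to 1. Over time they were 1 to 37, 0 to 17 and 1 to 13 for H3K27ac, 0 to 12, 0 to 12 and 0 to 8 for Pol II, and 0 to 3, 0 to 0 and 0 to 0 for EGR2. By genotype they were 1 to 1 for H3K27ac and 0 to 0 for C/EBPb, PPARg, PU.1, STAT6 and H3K4me2.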
